A study of Saccharomyces cerevisiae with 21 samples.

Results

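The RNA-seq comparison described here set a budding yeast strain whose only Mga2 was soluble against wild-type. The 6 libraries were chosen by their titles: the 3 of the strain labelled mga2delta pRS316-GPDprom-Mga2deltaTM-mCh (called the Mga2ΔTM strain below) and the 3 of WT SDC+All, out of 21 libraries from 7 strains with 3 libraries each. Wild-type was BY4741, a MATa haploid laboratory strain without a plasmid, grown in the synthetic medium SDC+All. The Mga2ΔTM strain was deleted for chromosomal MGA2 and carried, on the low-copy URA3 plasmid pRS316, Mga2 without its membrane anchor, fused to a red fluorescent protein and driven by the constitutive GPD promoter. It was grown in SDC-URA, the medium without uracil that selects for the plasmid. The direct comparisons used 3 further strains: mga2Δ cells with full-length Mga2 on the same plasmid backbone and promoter in SDC-URA (the Mga2 strain), BY4741 cells with Ole1 on that backbone and promoter in SDC-URA (the Ole1 strain), and mga2Δ cells without a plasmid in SDC+All (the mga2Δ strain). All cells were growing exponentially. No wild-type library with an empty plasmid was used here, so effects of the soluble Mga2, of the plasmid, of the medium and of the missing chromosomal MGA2 cannot be told apart in the comparison with wild-type alone.

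Mga2 is made as a precursor anchored in the membrane of the endoplasmic reticulum. When membrane lipids are rich in saturated acyl chains, ubiquitin-dependent processing by the proteasome releases its soluble part, which enters the nucleus and activates OLE1. OLE1 encodes the only fatty acid desaturase of this yeast, an enzyme that puts a double bond into acyl chains and so keeps membranes fluid. Mga2 that lacks the anchor needs no release and is no longer held back by unsaturated lipids. Its paralogue Spt23 is anchored and released in the same manner, and was named as a suppressor of Ty retrotransposon insertions.

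The total counts were 14991358 to 17319836 in the wild-type libraries and 12552418 to 15010082 in the Mga2ΔTM libraries. Levels are given in CPM (counts in each 1000000 of a library), scaled between libraries by TMM (trimmed mean of M values), with the libraries in the order of replicates 1, 2 and 3. A gene was called higher or lower when its fold change was above 1.5 and its adjusted p below 0.05 in edgeR's quasi-likelihood test with Benjamini-Hochberg adjustment over all 6164 tested genes. Fold changes are on the log2 scale, Mga2ΔTM over the other strain. The ± value after a fold change is a standard error worked back from that fold change and the statistic of this test. The labels do not say whether the libraries came from separate cultures, so the p-values measure the spread between these libraries, which may be technical. These are levels in bulk RNA relative to all other transcripts, so a change in a share of the cells and a change in every cell cannot be told apart.

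The engineered genes were as labelled. In wild-type, MGA2 (YIR033W) had 194, 168 and 195 CPM, and in Mga2ΔTM 1292, 1413 and 1204 CPM (log2 fold change 2.81 ± 0.11, adjusted p = 3.28e-12). Plasmid transcripts therefore stood 7.02-fold above the chromosomal level, and below those of the Mga2 strain, which averaged 3820.2 CPM (log2 fold change -1.55 ± 0.11, adjusted p = 3.50e-08). The coding part for the removed anchor yields no reads in the Mga2ΔTM strain, which lowers its MGA2 count relative to full-length MGA2 by an amount that was not measured. The mga2Δ strain had a mean of 0.503 CPM. URA3, the plasmid marker and a gene that BY4741 lacks, had 0 counts in each wild-type library, which allows up to 0.2 CPM by counting error alone, and 229, 254 and 285 CPM in the Mga2ΔTM libraries. Like MGA2, URA3 was lower than in the Mga2 strain (log2 fold change -1.59, adjusted p = 8.24e-07). Whether the level of the plasmid differed between these 2 strains was not tested. SPT23, the paralogue, did not pass the test, at 112 ± 4.68 CPM in wild-type and 109 ± 0.831 CPM in Mga2ΔTM (mean ± SD, n = 3 libraries; log2 fold change -0.03 ± 0.06, adjusted p = 0.753). Of the 7 a-cell genes that mark a MATa haploid 1 was called, ASG7 (0.66 ± 0.15), while STE2, the α-factor receptor, averaged 568 and 598 CPM and the α-cell receptor gene STE3 5.45 and 5.41 CPM. ASG7 fell below the fold minimum without wild-type replicate 2 (0.57), without wild-type replicate 3 (0.53) and without Mga2ΔTM replicate 2 (0.54).

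Against wild-type, 400 of the 6164 tested genes (6.49%) were higher in the Mga2ΔTM strain and 90 (1.46%) were lower. The counts of called list members given for this comparison are to be read beside these shares. The median over all tested genes was 0.00. Among genes with at least 10 counts on average, the largest increases after the plasmid marker URA3 were in DAL80, IZH4, HES1, DAN1 and YGL039W, and the 3 largest decreases were in YOR387C, VEL1 and ADH4. Called genes also included OLE1, 19 of 35 nitrogen genes and 11 of 29 iron genes.

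**Figure D1:**
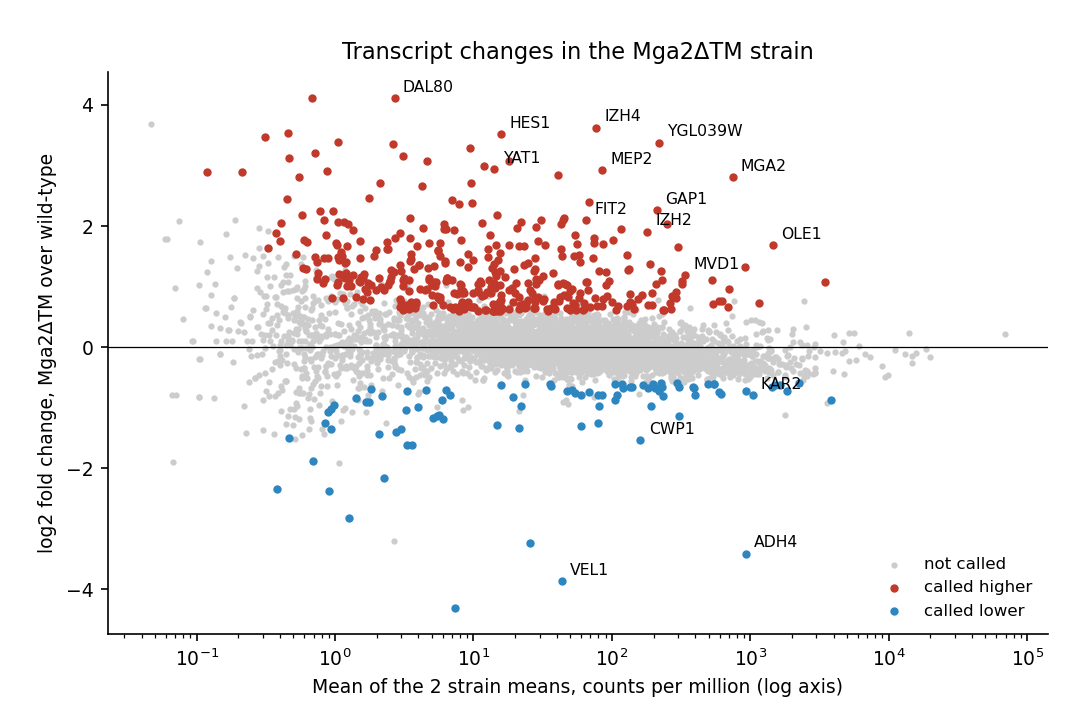
Log2 fold change (Mga2ΔTM over wild-type) of each tested gene except URA3, which is off the scale, against the mean of the 2 strain means in CPM on a log axis, with one point per gene. Red points are the genes called higher, blue points those called lower and grey points the rest. OLE1 and YGL039W stand out at high abundance above 0, and ADH4 below it.

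OLE1 (YGL055W) rose from 671, 523 and 878 CPM in wild-type to 2199, 2075 and 2382 CPM in the Mga2ΔTM libraries (log2 fold change 1.68 ± 0.18, adjusted p = 2.14e-06), 3.21 times the wild-type level. Every Mga2ΔTM library lay above every wild-type library, although such a lack of overlap, in either direction, was found for 38.6% of all tested genes and the wild-type libraries themselves differed by more than the Mga2ΔTM libraries did. Per length, OLE1 reached 1447 RPKM in the Mga2ΔTM strain, against 1002 RPKM for FAS1, a subunit of fatty acid synthase, and 269 RPKM for ELO1. ELO1, the elongase of medium-length acyl chains, had 149, 135 and 122 CPM in wild-type and 228, 271 and 255 CPM in Mga2ΔTM (log2 fold change 0.89 ± 0.12, adjusted p = 1.45e-05). PHS1, the dehydratase of the elongation cycle, had 90.8, 98 and 95.2 CPM and 181, 170.1 and 171 CPM (log2 fold change 0.88 ± 0.07, adjusted p = 1.05e-08). ACB1, which binds and carries acyl-CoA, had 179.7, 208 and 228 CPM and 451, 411 and 455 CPM (log2 fold change 1.09 ± 0.09, adjusted p = 2.51e-08). For these 3 genes too, the libraries of the 2 strains did not overlap.

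These 4 genes were the only called members of the 15-gene list of fatty acid synthesis, desaturation and elongation, whose median was 0.15. The genes of the synthesis step itself were not called: the acetyl-CoA carboxylase gene ACC1 was at 0.2 ± 0.12, FAS1 at 0.01 ± 0.12 and FAS2 at 0.24 ± 0.11. Neither were the long-chain elongase genes ELO2 (-0.14) and ELO3 (0.1), the enoyl reductase gene TSC13 (-0.29), the ketoreductase gene IFA38 (-0.11) or CYB5 (-0.26), the cytochrome that gives electrons to desaturases. Among 5 genes for acyl-CoA synthetases and fatty acid uptake, FAA4 alone was called, with 495, 377 and 519 CPM in wild-type and 775, 725 and 848 CPM in Mga2ΔTM (log2 fold change 0.76 ± 0.13, adjusted p = 0.000431). The main synthetase gene FAA1 was at -0.41 ± 0.09, below wild-type but short of the fold minimum.

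**Figure D2:**
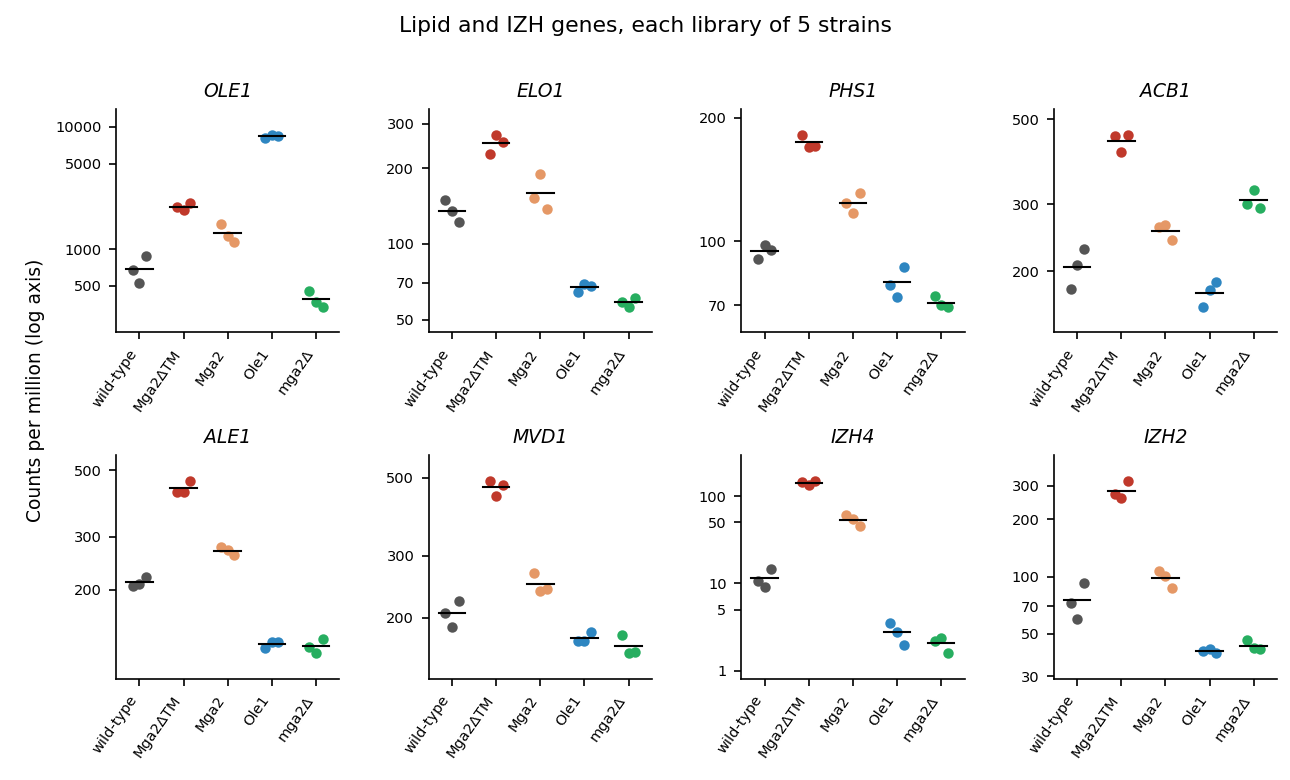
CPM on log axes of 8 lipid and IZH genes in each library of 5 strains, with a point per library and a bar at the mean of 3. In ELO1, PHS1, ACB1, ALE1, MVD1, IZH4 and IZH2 the Mga2ΔTM libraries are the highest of the 5 strains, and in OLE1 they are exceeded by the Ole1 strain, which carries OLE1 on its plasmid.

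The OLE1 promoter holds a low-oxygen response element, ACTCAACAA, a motif through which Mga2 is known to act on OLE1. The exact motif on either strand was rare: within 500 bases before the start codon it stood in 22 of 5697 tested protein-coding genes (0.386%), among them 2 of 382 called higher, OLE1 and YER188W, and 0 of 63 called lower. With up to 1 mismatch it was found in 15.5% of all these genes, in 20.7% of those called higher and in 12.7% of those called lower. Within 250 bases before to 50 bases after the start codon the shares with up to 1 mismatch were 9.95%, 12.6% and 11.1%. In the fatty acid list, 4 of the 4 called genes and 2 of the 11 others had such a match within 500 bases, in the acyltransferase list 2 of 3 and 2 of 6, in the sterol list 1 of 4 and 3 of 21, and in the IZH and zinc list 1 of 3 called higher and 0 of the 9 others. The called lipid genes MVD1, ERG13, ERG10, ICT1 and FAA4 had none, and called genes of other kinds, among them GAP1, PUT1, POX1 and RPN4, had one or more. The stretches below show the match in capitals in OLE1 and in 9 other called genes, most of them lipid genes, that were picked because they hold one, read in the direction of the motif from the RefSeq genome (build R64), so that the bases in common with OLE1 can be seen. A match is a string of letters and does not show that Mga2 binds there.
OLE1 (chrVII:398265-398313, plus strand): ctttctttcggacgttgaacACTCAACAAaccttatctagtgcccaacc
ACB1 (chrVII:560132-560180, minus strand): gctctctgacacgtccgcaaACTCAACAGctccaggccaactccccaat
ELO1 (chrX:69031-69079, minus strand): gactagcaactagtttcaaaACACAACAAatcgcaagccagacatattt
PHS1 (chrX:245405-245453, minus strand): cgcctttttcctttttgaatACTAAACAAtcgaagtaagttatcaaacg
ALE1 (chrXV:661930-661978, plus strand): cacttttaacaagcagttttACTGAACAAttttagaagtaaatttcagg
SLC1 (chrIV:363678-363726, plus strand): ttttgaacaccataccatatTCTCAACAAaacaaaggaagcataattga
HMG2 (chrXII:1032335-1032383, minus strand): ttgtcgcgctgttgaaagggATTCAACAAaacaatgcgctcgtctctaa
HES1 (chrXV:781778-781826, plus strand): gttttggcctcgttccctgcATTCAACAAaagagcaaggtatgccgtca
IZH2 (chrXV:324481-324529, plus strand): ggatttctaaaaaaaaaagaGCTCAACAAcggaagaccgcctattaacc
YGL039W (chrVII:423897-423945, plus strand): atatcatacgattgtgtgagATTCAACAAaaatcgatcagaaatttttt
The far end of the match lay 343 bases before the start codon in OLE1, and from 44 bases (YGL039W) to 284 bases (ALE1) before it in the others. The 9 near matches differ in which letter departs from the OLE1 motif, and HES1, HMG2 and YGL039W share the same 9 letters.

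Among acyltransferase genes 3 of 9 were called, all higher, with a list median of 0.37 and 8 of 9 members above 0. These enzymes put acyl chains onto the glycerol backbone of phospholipids and storage lipids. ALE1, a broad lysophospholipid acyltransferase, had 206, 208 and 220.2 CPM in wild-type and 424, 422 and 459 CPM in Mga2ΔTM (log2 fold change 1.04 ± 0.06, adjusted p = 3.84e-10), the tightest of the 3 changes. ICT1, a lysophosphatidic acid acyltransferase, had 27, 31.8 and 31.8 CPM and 81.7, 86 and 91.3 CPM (log2 fold change 1.52 ± 0.09, adjusted p = 9.16e-10). SLC1, the main enzyme of that reaction, was at log2 fold change 0.69 ± 0.1, adjusted p = 4.99e-05. The glycerol 3-phosphate acyltransferase genes of the first step were not called (SCT1 0.43 ± 0.06, GPT2 0.19 ± 0.13).

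Of 18 genes of storage lipid synthesis and lipid droplets 2 were called, both higher (11.1%, against 6.49% of all tested genes), with a median of 0.07. These were SRT1, a cis-prenyltransferase found at lipid droplets (0.981 and 2.99 CPM, log2 fold change 1.61 ± 0.23, adjusted p = 4.41e-05), and TLD1 (0.65 ± 0.1), which fell to 0.55 and below the fold minimum without wild-type replicate 1. The triacylglycerol synthases DGA1 (0.19) and LRO1 (-0.14), the steryl ester synthases ARE1 (0.51) and ARE2 (0.07), and the droplet proteins SEI1, the yeast seipin (0.06), and PLN1 (0.24) were not called. Nor was PAH1 (0.55 ± 0.09), the phosphatase that turns phosphatidic acid into diacylglycerol, whereas NEM1, the catalytic subunit that activates Pah1, was called at 0.69 ± 0.11. NEM1 stood at 0.57 without wild-type replicate 1. No gene of 7 lipases was called by edgeR, limma or DESeq2 (3 at an unadjusted p below 0.05).

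In phospholipid synthesis, 1 of 11 genes of the CDP-diacylglycerol route was called, PSD1, a phosphatidylserine decarboxylase (log2 fold change -0.68 ± 0.11, adjusted p = 0.000124), which was lower. CDS1, which makes CDP-diacylglycerol (-0.28), CHO1 (-0.45) and the methyltransferases CHO2 (-0.23) and OPI3 (-0.24) were all below 0 but not called. No gene of the 6-gene Kennedy pathway was called by any of the 3 tools (2 at an unadjusted p below 0.05). INO1, the inositol 3-phosphate synthase and the classic target of Ino2 and Ino4, was the single called gene of 10 in the inositol and choline list, with 144, 118 and 148 CPM in wild-type and 289, 249 and 304 CPM in Mga2ΔTM (log2 fold change 1.04 ± 0.26, adjusted p = 0.00743). The other regulated members, the inositol transporter gene ITR1 (-0.25) and the choline transporter gene HNM1 (0.09), were not called. Among 26 sphingolipid genes the only call was ORM1, a brake on serine palmitoyltransferase, at -0.64 ± 0.06, and its paralogue ORM2 was at -0.04. The call of ORM1 was lost when libraries were scaled by their totals alone.

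Among sterol synthesis genes 4 of 25 were called, all higher and all in the mevalonate part that precedes squalene, while the list median was -0.05. MVD1, the mevalonate pyrophosphate decarboxylase, had 206, 189 and 223 CPM in wild-type and 489.6, 443 and 476 CPM in Mga2ΔTM (log2 fold change 1.19 ± 0.08, adjusted p = 1.51e-09), with no overlap between strains. ERG13 (HMG-CoA synthase) was at 0.75 ± 0.08, ERG10 (acetoacetyl-CoA thiolase) at 0.72 ± 0.06 and HMG2 (HMG-CoA reductase) at 0.62 ± 0.07. HMG2 fell below the fold minimum without wild-type replicate 1 (0.57) and without Mga2ΔTM replicate 3 (0.58). The major reductase gene HMG1 (-0.34), the squalene synthase gene ERG9 (-0.01) and the demethylase gene ERG11 (-0.41) were not called. In the list of 16 sterol regulators and transporters the 3 called genes were HMG2, OSH6 and PDR11, all higher. HES1, an oxysterol-binding protein homologue outside both lists, rose from 2.81, 2.97 and 1.85 CPM to 28.1, 33.8 and 25.6 CPM (log2 fold change 3.52 ± 0.17, adjusted p = 3.24e-11). OSH6, a related lipid exchanger, was at 0.75 ± 0.08. PDR11, a sterol importer, was at 0.66 ± 0.15 and at 0.53 without wild-type replicate 3.

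**Figure D3:**
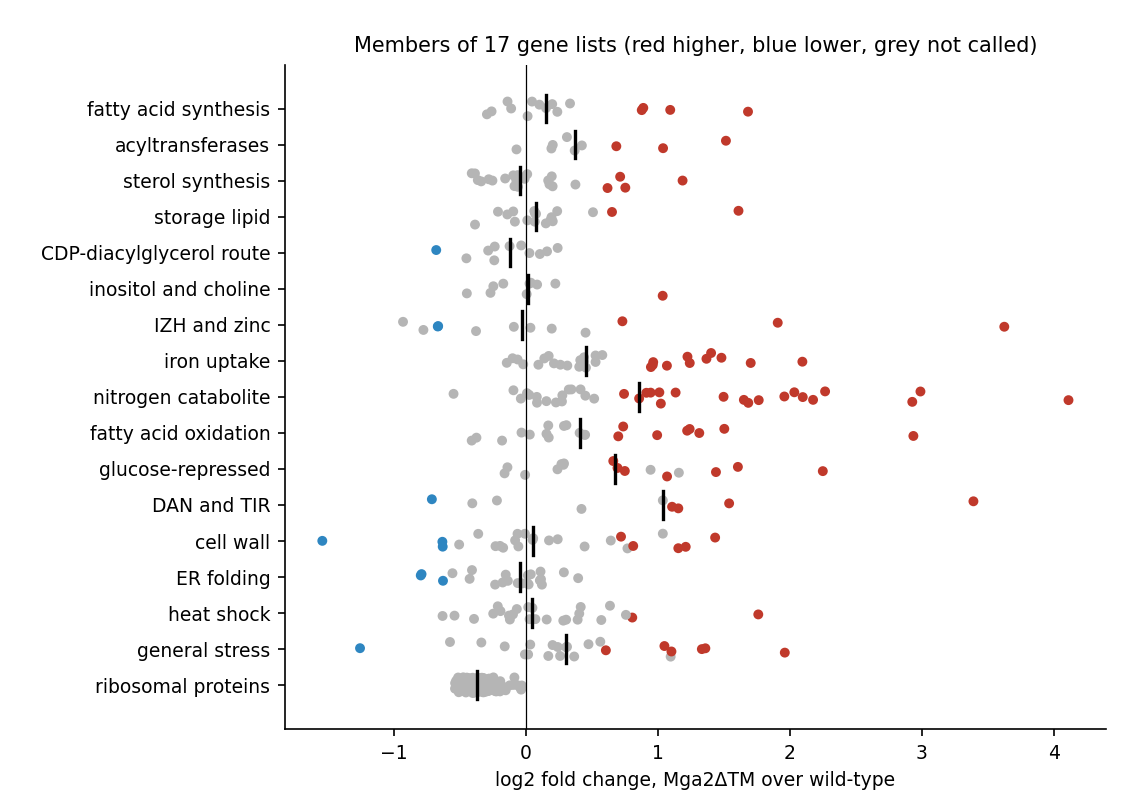
Log2 fold change (Mga2ΔTM over wild-type) of each tested member of 17 gene lists, with a point per gene and a black bar at each list's median. Red marks genes called higher, blue genes called lower and grey the rest. The nitrogen list has the most red points, 19 of 35, and all 137 ribosomal protein genes lie a little below 0 without a call.

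IZH genes encode membrane proteins of the progestin receptor family with reported roles in zinc and sterol homeostasis. IZH4 (YOL101C) rose from 10.6, 9.2 and 14.8 CPM in wild-type to 146, 132 and 149 CPM in Mga2ΔTM (log2 fold change 3.63 ± 0.17, adjusted p = 3.91e-11), and IZH2 (YOL002C) from 72.6, 60.2 and 92.9 CPM to 271, 259 and 318 CPM (log2 fold change 1.91 ± 0.14, adjusted p = 6.46e-09). In both genes each Mga2ΔTM library lay well above each wild-type library. The other family members were not called: IZH1 was at 0.04 ± 0.15 and IZH3 at 0.45 ± 0.08. IZH2 has a near match to the OLE1 motif, shown above, whereas no match with up to 1 mismatch was found within 500 bases before the IZH4 start codon.

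In the list of 12 IZH and zinc genes these 2 and COT1 were higher and 2 were lower. The 3 largest decreases lay outside it. ADH4, an alcohol dehydrogenase made in zinc-poor cells, had 1190.2, 2075 and 1810.3 CPM in wild-type and 150.1, 162 and 166 CPM in Mga2ΔTM (log2 fold change -3.41 ± 0.69, adjusted p = 0.00147). VEL1, highly induced in zinc-depleted cells and of unknown function, had 67.6, 108 and 68.2 CPM and 4.25, 5.92 and 6.64 CPM (log2 fold change -3.86 ± 0.75, adjusted p = 0.00104), and its paralogue YOR387C was at log2 fold change -4.31 ± 1.0, adjusted p = 0.00414. DESeq2 gave no adjusted p for VEL1, so that its call rests on edgeR and limma. Reads of the paralogues VEL1 and YOR387C may be split between them, so their separate values are uncertain. These 3 genes were named by a rule that required the strains not to overlap. The plasma membrane zinc transporter gene ZRT1 (-0.93 ± 0.35, adjusted p = 0.0638) and the zinc regulator gene ZAP1 (-0.78 ± 0.3, adjusted p = 0.0711) were below 0 but not called by edgeR. DESeq2 called both (adjusted p = 0.0217 for ZRT1 and 0.0306 for ZAP1), as did edgeR for ZRT1 with only the libraries of the 2 strains (0.0154) and for ZAP1 without wild-type replicate 1 (0.0409). The vacuolar transporter genes ZRC1 (-0.66 ± 0.1) and ZRT3 (-0.67 ± 0.23) were called lower. ZRT3 lost its call with any of 5 of the 6 libraries left out (adjusted p up to 0.153) and with the replicate block (adjusted p = 0.0651), and ZRC1 lost it with library totals. COT1, a vacuolar zinc and cobalt transporter, was higher (0.73 ± 0.08).

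Iron uptake genes rose in part. The list of 29 held genes for reductases, transporters and cell wall proteins that Aft1 induces when iron is short, of which 11 were higher and 0 lower, with a median of 0.46. FIT2, a cell wall mannoprotein that retains iron-loaded siderophores, rose from 22.8, 16.6 and 34 CPM in wild-type to 91.4, 111 and 112 CPM in Mga2ΔTM (log2 fold change 2.1 ± 0.26, adjusted p = 1.15e-05), and FIT3 from 22.4, 20.02 and 36.4 CPM to 67.9, 88.5 and 101 CPM (log2 fold change 1.7 ± 0.27, adjusted p = 0.00015). In both genes wild-type replicate 3 was the highest of its strain and still below each Mga2ΔTM library. The siderophore transporter genes ARN1 (1.07 ± 0.2), ARN2 (1.4 ± 0.22) and SIT1 (1.37 ± 0.23), the ferroxidase gene FET3 (0.97 ± 0.17), the reductase genes FRE2 (0.96 ± 0.13) and FRE3 (1.24 ± 0.14), the heme oxygenase gene HMX1 (1.48 ± 0.18) and TIS11 (1.23 ± 0.29), whose product lowers mRNAs of iron-using proteins, were called too. FRE5, the last of the 11 (0.95 ± 0.29), lost its call without wild-type replicate 1 (0.79, adjusted p = 0.0924) and in 2 further leave-one-out fits. The permease gene FTR1 (0.17), the partner of Fet3, the low-affinity transporter gene FET4 (-0.1) and FIT1 (0.58) were not called.

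The Aft1 site, TGCACCC on either strand, stood within 500 bases before the start codon of 22 of these 29 genes, against 2.37% of all 5697 genes searched. It was present in 11 of the 11 called members and in 11 of the 18 that were not called. The list was drawn up to hold the Aft1 regulon, so the high share among its members does not bear on the changes. The stretch of the FIT2 promoter that follows holds 4 matches, in capitals, and is shown because FIT2 had the largest change of the list.
FIT2 (chrXV:1059191-1059410, plus strand): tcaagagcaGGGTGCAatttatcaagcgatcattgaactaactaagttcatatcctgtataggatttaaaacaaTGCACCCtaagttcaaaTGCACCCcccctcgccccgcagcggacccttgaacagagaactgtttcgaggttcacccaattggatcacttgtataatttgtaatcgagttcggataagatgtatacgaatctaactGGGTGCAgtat
The first letter printed lies 340 bases before the FIT2 start codon and the last 121 bases before it.

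Nitrogen genes were the list with the most calls: 19 of 35 were higher and 0 lower, with a median of 0.86. These genes encode permeases and catabolic enzymes for poor nitrogen sources and the GATA factors that control them, and are repressed while a good source is at hand. DAL80, a repressor of the GATA family, rose from 0.313, 0.212 and 0.331 CPM in wild-type to 5.4, 5.22 and 4.66 CPM in Mga2ΔTM (log2 fold change 4.11 ± 0.27, adjusted p = 1.91e-09). MEP2, the high-affinity ammonium permease, rose from 19.6, 18.9 and 20.9 CPM to 153, 155 and 145 CPM (log2 fold change 2.93 ± 0.13, adjusted p = 7.43e-12). GAP1, the general amino acid permease, rose from 73.1, 78.5 and 67.1 CPM to 387, 357 and 309.7 CPM (log2 fold change 2.27 ± 0.11, adjusted p = 4.72e-11). In MEP2 and GAP1 the libraries of the 2 strains were far apart, with little spread within a strain. The DAL80 libraries did not overlap either. Its wild-type values rest on few reads, close to the 0.2 CPM that 0 counts allow. The size of its change is therefore uncertain.

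Permeases and regulators made up much of the rest. Called members were PUT4, the proline permease (2.99 ± 0.16), DUR3, the urea permease (2.1 ± 0.16), UGA4, the γ-aminobutyrate permease (1.14 ± 0.18), DAL5, the allantoate permease (0.86 ± 0.12), and GAT1, an activator of the GATA family (0.74 ± 0.1). The genes that degrade allantoin, DAL1 (1.5 ± 0.27), DAL2 (1.76 ± 0.24) and DAL3 (1.96 ± 0.14), the urea amidolyase gene DUR12 (1.65 ± 0.12), the proline oxidase gene PUT1 (1.69 ± 0.25) and the ammonium permease gene MEP1 (1.02 ± 0.15) were called as well. DAL4, the allantoin permease, was called at 1.01 ± 0.3 but had an adjusted p of 0.0964 without Mga2ΔTM replicate 2 and missed the threshold in 3 further leave-one-out fits. The further regulator genes GLN3 (-0.09), URE2 (-0.04) and GZF3 (0.23) were not called, nor were glutamine synthetase GLN1 (0.42), the arginine permease CAN1 (0.28) and the amino acid permease AGP1 (0.45). The GATA site, GATAAG on either strand, stood within 500 bases before the start codon of 30 of the 35 genes, against 22.7% of all genes searched, in 17 of the 19 called members and in 13 of the 16 others. The list was drawn up from genes that GATA factors control, so this high share does not bear on the changes. MEP2 and DAL80 are shown for their closely packed sites, in capitals, of which 2 neighbouring pairs in MEP2 share a base.
MEP2 (chrXIV:356973-357232, plus strand): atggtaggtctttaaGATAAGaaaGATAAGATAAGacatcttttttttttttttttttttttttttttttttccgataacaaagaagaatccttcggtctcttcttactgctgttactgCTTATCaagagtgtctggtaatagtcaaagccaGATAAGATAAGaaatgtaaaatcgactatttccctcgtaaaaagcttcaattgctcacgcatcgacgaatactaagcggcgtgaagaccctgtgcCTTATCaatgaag
DAL80 (chrXI:506598-506697, plus strand): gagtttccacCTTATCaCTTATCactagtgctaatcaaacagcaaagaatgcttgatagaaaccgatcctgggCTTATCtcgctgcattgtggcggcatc
The MEP2 stretch holds 7 matches and runs from 480 to 221 bases before the start codon, and the DAL80 stretch holds 3 and runs from 300 to 201 bases before it.

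**Figure D4:**
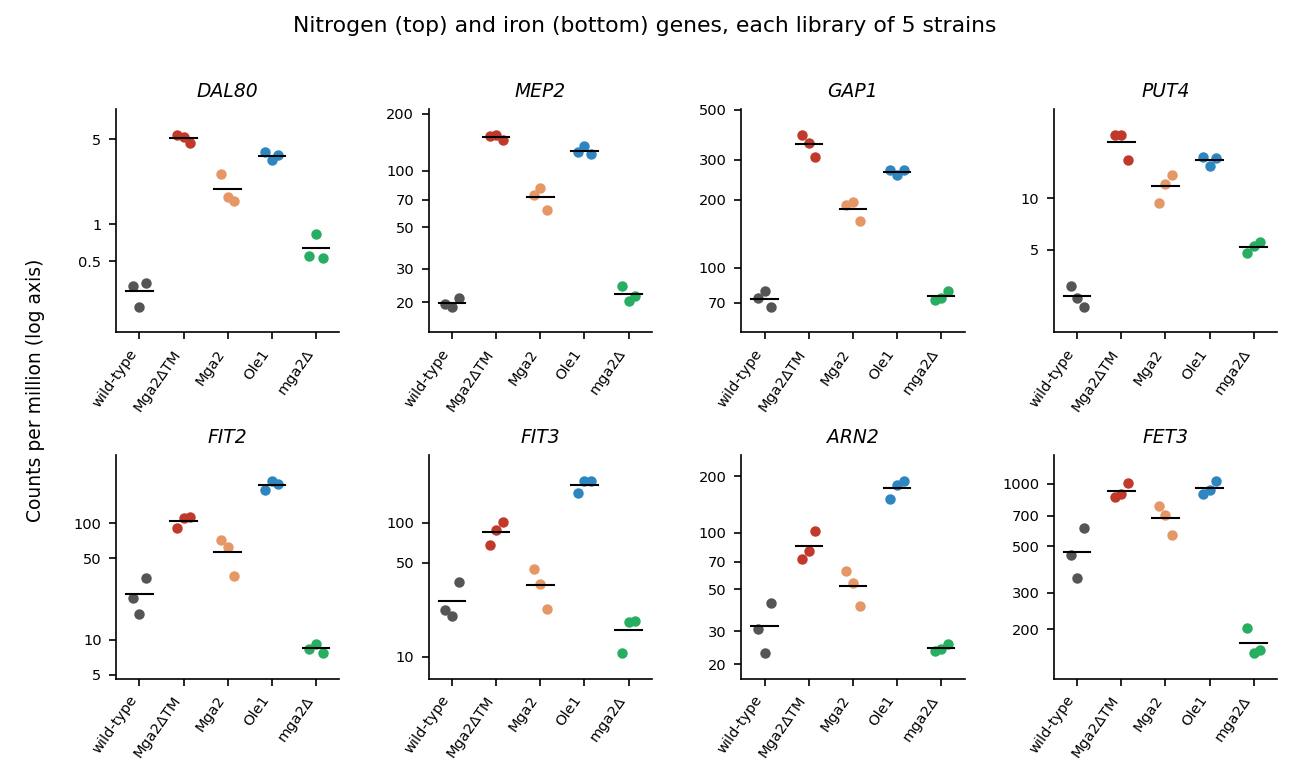
CPM on log axes of 4 nitrogen genes and 4 iron genes in each library of 5 strains, with a point per library and a bar at the mean of 3. In the nitrogen genes the 3 strains grown in SDC-URA are above the 2 strains grown in SDC+All, and in FIT2, FIT3 and ARN2 the Ole1 strain is the highest.

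Fatty acid oxidation and the carnitine shuttle, which moves acetyl and acyl units between compartments, contributed 8 called genes of 21, all higher, with a median of 0.41. The outer mitochondrial carnitine acetyltransferase gene YAT1 rose from 2.44, 4.03 and 3.37 CPM in wild-type to 27.6, 24.9 and 22.6 CPM in Mga2ΔTM (log2 fold change 2.94 ± 0.26, adjusted p = 1.62e-07). The further carnitine genes YAT2 (1.5 ± 0.1), CAT2 (1.31 ± 0.14) and CRC1, the carnitine carrier (1.24 ± 0.25), were called as well. In the peroxisomal pathway POX1, the acyl-CoA oxidase (1.0 ± 0.25), SPS19, a dienoyl-CoA reductase (0.7 ± 0.13), PXA1, a subunit of the acyl-CoA importer (0.74 ± 0.12), and POT1, the thiolase (1.22 ± 0.38), were called, and FOX2, the multifunctional enzyme, was not (0.41 ± 0.13). POT1 lost its call without wild-type replicate 1 (0.82, adjusted p = 0.129) and in 3 further leave-one-out fits.

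Of 16 glucose-repressed genes of gluconeogenesis, the glyoxylate cycle and acetate use 7 were higher and 0 lower, with a median of 0.68. The count was 4 without wild-type replicate 1 and 9 without wild-type replicate 2. SFC1, a mitochondrial succinate and fumarate carrier (2.25 ± 0.5), SIP4, an activator of gluconeogenic genes (1.61 ± 0.17), ACS1, acetyl-CoA synthetase (1.44 ± 0.16), and PCK1, phosphoenolpyruvate carboxykinase (1.07 ± 0.2), were among those called. FBP1 (0.95 ± 0.48, adjusted p = 0.17), ICL1 (0.27) and ADH2 (0.24), which are repressed by glucose in the same way, were not.

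The DAN and TIR genes encode mannoproteins that coat the wall of anaerobic cells and depend on low oxygen and sterol regulators. Of 9 tested, 4 were higher and 1 lower. TIP1 rose from 161, 146 and 133 CPM to 311, 333 and 304 CPM (log2 fold change 1.11 ± 0.13, adjusted p = 6.36e-06). DAN1 was at 0.375, 0 and 0.132 CPM and 2.23, 1.92 and 1.62 CPM (log2 fold change 3.39 ± 0.53, adjusted p = 0.000107), a level of few reads in wild-type. DAN4 (1.54 ± 0.23) and PAU23 (1.16 ± 0.29) were called higher, TIR3 lower (-0.71 ± 0.16), and TIR1 was not called (-0.4 ± 0.21). Of 18 heme and hypoxic genes none was called by edgeR, limma or DESeq2 (4 at an unadjusted p below 0.05), HEM13 at -0.13 and the hypoxic repressor gene ROX1 at 0.26 among them.

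Among 25 cell wall genes 5 were higher and 3 lower. The higher ones included SED1, a mannoprotein (0.72 ± 0.1), PIR3 (1.43 ± 0.18) and GSC2, a glucan synthase subunit (0.81 ± 0.09). The mannoprotein gene CWP1 fell from 221, 292 and 204 CPM to 95.9, 94.3 and 56.1 CPM (log2 fold change -1.54 ± 0.26, adjusted p = 0.000292). Its neighbour CWP2, also a major mannoprotein (-0.63 ± 0.08), and the glucanosyltransferase gene GAS1 (-0.63 ± 0.11) were called lower, and both lost the call when scaled by library totals. In the endoplasmic reticulum, 3 of 22 folding and degradation genes were lower and 0 higher: KAR2, the chaperone BiP, with 1198, 1504 and 1257 CPM in wild-type and 815, 757 and 709 CPM in Mga2ΔTM (log2 fold change -0.8 ± 0.1, adjusted p = 6.60e-06), its exchange factors SIL1 (-0.79 ± 0.07) and LHS1 (-0.63 ± 0.07). No gene of the list was called higher by edgeR, limma or DESeq2 (2 at an unadjusted p below 0.05 and above 0), and HAC1, the regulator of the unfolded protein response, was at -0.06 ± 0.07 by transcript level. LHS1 lost its call with library totals. Of 25 heat shock genes 2 were higher (8.0%, near the 6.49% of all tested genes). Of 23 general stress genes 6 were higher (26.1%) and 1 lower. The number of higher stress genes ranged from 4 to 9 when single libraries were left out (9 without wild-type replicate 2). DDR2 (1.96 ± 0.37), SIP18 (1.1 ± 0.23) and GRE1 (1.33 ± 0.23) were among the 6. The general stress gene that fell was GRE2, a methylglyoxal reductase, with 97.8, 95.9 and 142 CPM in wild-type and 50.7, 46.9 and 43 CPM in Mga2ΔTM (log2 fold change -1.26 ± 0.13, adjusted p = 1.12e-06). RPN4, which activates proteasome genes and is itself degraded by the proteasome, was at 0.79 ± 0.05, while of the other 32 tested genes of the proteasome list none was called by edgeR, limma or DESeq2 (7 at an unadjusted p below 0.05, all lower).

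Genes for the supply of pyrimidines moved both ways, 4 of 17 higher and 3 lower. Besides the plasmid marker URA3, the genes for the first enzyme of the pathway, URA2 (1.07 ± 0.12), the uridine permease, FUI1 (0.86 ± 0.2), and the uracil permease, FUR4 (0.79 ± 0.18), were higher. FUR1, which salvages uracil (-0.87 ± 0.09), URA1 (-0.77 ± 0.09) and URA4 (-0.68 ± 0.08) were lower. In biotin synthesis BIO2, biotin synthase, rose from 66, 63.9 and 70.2 CPM to 205, 180.3 and 191 CPM (log2 fold change 1.53 ± 0.12, adjusted p = 2.28e-08) and BIO3 was at 0.89 ± 0.13. The methionine genes MET6, methionine synthase (-0.88 ± 0.12), and SAM1, S-adenosylmethionine synthetase (-0.74 ± 0.12), were lower, and MET28, an activator of sulfur genes, was higher (1.08 ± 0.21). ADE17, a late enzyme of purine synthesis, was lower (-1.13 ± 0.23), and 17 of 18 purine genes were below 0.

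All 137 cytosolic ribosomal protein genes lay below 0, between -0.54 and -0.03 with a median of -0.37. None was called by edgeR, limma or DESeq2, since no fold change reached 1.5, and 125 had an unadjusted p below 0.05. With library totals the median of all genes was 0.09 higher, which is smaller than this shift. Mitochondrial ribosomal protein genes (58), ribosome assembly genes (68) and nuclear pore and nuclear membrane genes (33) likewise held no call by any of the 3 tools, with 16, 6 and 13 at an unadjusted p below 0.05, and medians of -0.08, -0.16 and -0.07.

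Of the 20 largest increases that passed the rule for named genes, several fell outside these lists. YGL039W, an aldehyde reductase, rose from 34, 38.1 and 43.5 CPM to 401, 383 and 418 CPM (log2 fold change 3.38 ± 0.14, adjusted p = 3.28e-12). FHN1, a paralogue of the eisosome protein gene NCE102, rose from 2.88, 5.09 and 3.64 CPM to 32, 31.2 and 34 CPM (log2 fold change 3.07 ± 0.16, adjusted p = 1.06e-10). CSS1, a cell wall glycoprotein gene, rose from 2.5, 2.62 and 2.51 CPM to 17.6, 16.1 and 16.4 CPM (log2 fold change 2.71 ± 0.23, adjusted p = 6.55e-08). The rule that named them required the strains not to overlap. CDA1, a chitin deacetylase of the spore wall (3.35), COS12, of the endosomal COS family (3.29), SPG4, needed in stationary phase (3.15), SRL4 (2.91) and NRS1, a nitrogen-responsive activator of the cell cycle start (2.7), were further examples at lower levels.

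Sporulation genes, which act in diploid cells, held 6 higher calls and 1 lower (SPS4, -1.39 ± 0.34) among 14, with 4 to 7 higher when single libraries were left out. Among the largest decreases, many were open reading frames with no counterpart in the RefSeq annotation, which overlap other genes in part, and the reads of overlapping genes cannot be assigned without strand. Of 450 such features tested 17 were higher and 27 lower, so that they made up 27 of the 90 lower calls.

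Open reading frames of Ty retrotransposons were grouped after their values had been seen, from the RefSeq annotation. Of 37 tested, 25 were higher in Mga2ΔTM than in wild-type (6.49% of all tested genes were) and 1 was lower (1.46% of all), with a median of 1.18. Summed over the 37, their level was 442.2, 331.1 and 455.7 CPM in wild-type and 994.1, 959.1 and 856.2 CPM in Mga2ΔTM. The sums did not overlap. YBL005W-B rose from 47.9, 44.4 and 49.1 CPM to 123, 116 and 101 CPM (log2 fold change 1.26 ± 0.13, adjusted p = 7.68e-07), YNL284C-B from 9.13, 8.49 and 12.4 CPM to 82.5, 73 and 60.8 CPM (log2 fold change 2.85 ± 0.18, adjusted p = 1.30e-09), and YDR098C-B was the one that was lower (-3.23 ± 0.98). These elements are near-identical copies among which reads cannot be placed with certainty, so values of single elements are uncertain. For the same reason the called elements cannot be counted as separate changes. Against the Mga2 strain 16 were higher and 0 lower (median 0.71), against the Ole1 strain 18 and 0 (median 1.04), and against the mga2Δ strain 23 and 2 (median 1.09). Over all tested genes the shares called higher in these comparisons were 2.58%, 2.87% and 5.63%.

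Direct comparisons set the Mga2ΔTM strain against strains that share its medium or its deletion. All 4 comparisons use the same 3 Mga2ΔTM libraries, so their values are given side by side and are not independent of each other. Against the Mga2 strain, which shares the deletion, the medium, the plasmid backbone and the promoter, 159 genes were higher (2.58%) and 51 lower (0.827%). The lower ones included the plasmid marker URA3 (log2 fold change -1.59, adjusted p = 8.24e-07), so the level of the plasmid may differ too, which was not tested. Against the Ole1 strain, which shares medium, backbone and promoter but has chromosomal MGA2, 177 were higher (2.87%) and 137 lower (2.22%). Against the mga2Δ strain, which shares the deletion but not plasmid or medium, 347 were higher (5.63%) and 448 lower (7.27%).

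Against the Mga2 strain 3 of 15 genes of the fatty acid list, 2 of 9 of the acyltransferase list, 2 of 25 of the sterol list and 0 of 18 of the storage lipid list were higher. For genes called against wild-type, in the order Mga2, Ole1 and mga2Δ strain, the log2 fold changes were 0.65, 1.9, 2.1 for ELO1, 0.69, 1.72, 1.74 for ALE1 and 0.91, 1.42, 1.5 for MVD1. They were 1.41, 5.67, 6.1 for IZH4, 1.52, 2.8, 2.7 for IZH2 and 1.86, 3.68, 4.25 for YGL039W, all called. The largest of these, for IZH4, went with means of 142 CPM in Mga2ΔTM, 53.5 CPM in the Mga2 strain, 2.76 CPM in the Ole1 strain and 2.08 CPM in the mga2Δ strain. OLE1 was higher than in the Mga2 strain (log2 fold change 0.72 ± 0.18, adjusted p = 0.0147) and the mga2Δ strain (log2 fold change 2.52 ± 0.19, adjusted p = 1.07e-08), and lower than in the Ole1 strain, whose plasmid carries it, with 8115, 8603 and 8495 CPM. PHS1, at 0.49 against the Mga2 strain, did not reach the fold minimum there, and ACB1 (0.52) and ICT1 (0.51) did not reach it against the mga2Δ strain. FAA4 was called in all 3, at 0.83, 2.51, 1.22. Against the Ole1 strain the fatty acid list had 6 called higher and 1 lower, and here the synthase genes ACC1 (1.05 ± 0.12), FAS1 (0.86 ± 0.12) and FAS2 (1.12 ± 0.11) were among those higher.

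INO1 took the opposite direction: higher than wild-type, it was lower than in the Mga2 strain (log2 fold change -0.98 ± 0.26, adjusted p = 0.0207), the Ole1 strain (log2 fold change -1.18 ± 0.26, adjusted p = 0.00447) and the mga2Δ strain (log2 fold change -0.79 ± 0.26, adjusted p = 0.0253). Its levels were 891, 449.9 and 326 CPM in the Mga2 strain, 524, 694 and 686 CPM in the Ole1 strain and 615, 421 and 418 CPM in the mga2Δ strain.

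Of the 35 nitrogen genes, 1 was higher against the Ole1 strain (median 0.12), 9 against the Mga2 strain (median 0.26) and 16 against the mga2Δ strain (median 0.51), with 0 lower in each. DAL80 stood at 0.48 ± 0.18 against the Ole1 strain and was not called, with 3.9, 3.35 and 3.71 CPM there, whereas it was called against the Mga2 strain (log2 fold change 1.39 ± 0.2, adjusted p = 0.000113) and the mga2Δ strain (log2 fold change 2.97 ± 0.23, adjusted p = 1.29e-08). MEP2 had 126, 135 and 122 CPM in the Ole1 strain, 74, 80.8 and 61.8 CPM in the Mga2 strain and 24.4, 20.3 and 21.6 CPM in the mga2Δ strain, and GAP1 had 270.4, 258 and 269, 189, 196 and 161 and 72.1, 73.3 and 79.2 CPM. In these 3 genes the libraries of the Ole1 and Mga2 strains, also grown in SDC-URA, all lay above every wild-type library and below every Mga2ΔTM library, those of the Mga2 strain lower than those of the Ole1 strain. The mga2Δ libraries, grown in SDC+All, overlapped wild-type in MEP2 and GAP1 and lay above it in DAL80. Plasmid and medium changed together in these strains and cannot be told apart. YAT1 was at 0.48 ± 0.22 against the Ole1 strain (not called), and was higher than in the Mga2 strain (log2 fold change 1.8 ± 0.24, adjusted p = 5.89e-05) and the mga2Δ strain (log2 fold change 2.42 ± 0.25, adjusted p = 5.66e-07).

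Of the 29 iron genes 1 was higher (FRE4) and 5 were lower against the Ole1 strain, while 23 were not called. Against the Mga2 strain 6 were higher and against the mga2Δ strain 16, with 0 lower in both. FIT2 had 193, 229.7 and 219 CPM in the Ole1 libraries, above all Mga2ΔTM libraries (log2 fold change -1.03 ± 0.24, adjusted p = 0.00727), and 8.38, 9.25 and 7.73 CPM in the mga2Δ libraries (log2 fold change 3.63 ± 0.29, adjusted p = 2.86e-08). FIT3 (-1.16 ± 0.25) and ARN2 (-1.03 ± 0.21) were lower than in the Ole1 strain too, and FET3 was not called (-0.04 ± 0.17).

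ADH4 varied widely among libraries of a strain, with 1079, 137 and 60.9 CPM in the Mga2 strain and 512, 219 and 437 CPM in the Ole1 strain. It was not called against either (-1.42 ± 0.64 and -1.29 ± 0.64), and was lower than in the mga2Δ strain (log2 fold change -2.62 ± 0.67, adjusted p = 0.00567). CWP1 was lower in all 3 comparisons, at -1.49, -1.27, -1.59. Against the Ole1 strain the largest decrease was in TIR1, with 219.9, 184 and 195 CPM in the Ole1 libraries and 9.11, 8.99 and 8.83 CPM in the Mga2ΔTM libraries (log2 fold change -4.47 ± 0.21, adjusted p = 3.75e-11), and 5 of 9 DAN and TIR genes were lower. TIP1 (2.55 ± 0.14) and DAN4 (0.67 ± 0.22) were higher than in the Ole1 strain. PHO84, the high-affinity phosphate transporter, was lower than in the Mga2 strain (log2 fold change -2.3 ± 0.64, adjusted p = 0.0269) and the Ole1 strain (log2 fold change -3.37 ± 0.64, adjusted p = 0.0012), with 112, 29.9 and 38.4 CPM in the latter, libraries that differed among themselves.

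Many stress and chaperone genes were lower in the Mga2ΔTM strain than in the mga2Δ strain. Of 23 general stress genes 18 were lower (median -1.46), of 25 heat shock genes 17 (median -0.88) and of 22 endoplasmic reticulum folding genes 12 (median -0.67), with 0 higher in each list. KAR2 had 2903, 3457 and 3744 CPM in the mga2Δ libraries (log2 fold change -2.15 ± 0.1, adjusted p = 1.10e-11), above both wild-type and Mga2ΔTM. No heat shock gene was called by edgeR against the Mga2 strain (6 at an unadjusted p below 0.05, 0 called by limma or DESeq2) or the Ole1 strain (6 likewise, 1 called lower by limma and 0 by DESeq2). General stress genes were lower in part against these strains too, with 0 higher. Against the Ole1 strain 9 of 23 were lower (2.22% of all tested genes were). Against the Mga2 strain 4 of 23 were lower by edgeR, 2 by limma and 5 by DESeq2 (0.827% of all tested genes by edgeR).

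**Figure D5:**
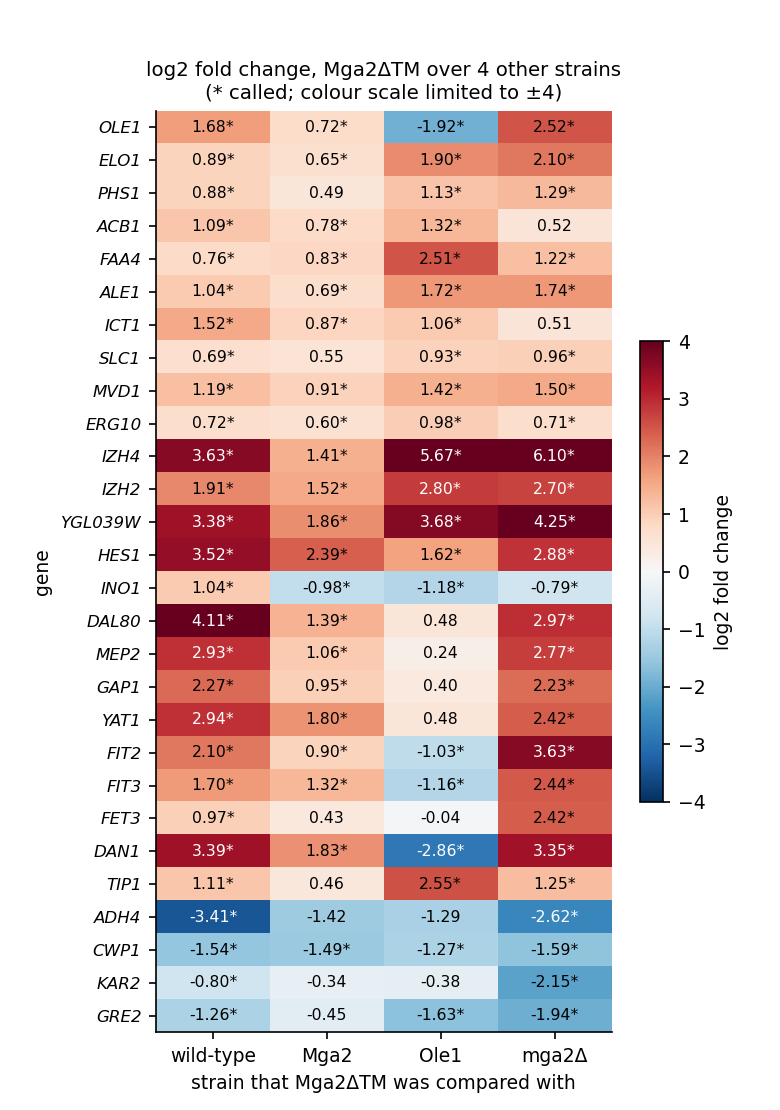
Log2 fold changes of 28 genes (rows) for Mga2ΔTM over each of 4 strains (columns), with the value printed in each cell, an asterisk for called differences and a colour scale limited to ±4. IZH4, IZH2 and YGL039W are higher in all 4 columns, DAL80, MEP2, GAP1 and YAT1 have no asterisk against the Ole1 strain, and INO1 is higher only against wild-type.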

How the data were processed

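RNA was extracted with hot phenol from exponentially growing cells, depleted of ribosomal RNA and sequenced as single-end reads of 50 bases. Alignment by the authors was to genome build R64 (STAR 2.5.1b). Reads were then assigned to genes with HTSeq 0.5.4p3, and raw counts for 7122 genes in 21 libraries were deposited by the authors, together with a normalized table that was not used here. Whether the counting used strand is not given in the sources used here.

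From the deposited counts, genes passing edgeR's filterByExpr (minimum count 10, minimum total 15; 6164 genes) were fitted with edgeR 4.0.16 in R 4.3.3 (TMM factors, robust quasi-likelihood, 1 mean per strain over all 21 libraries). CPM were scaled by the TMM factors, and RPKM used RefSeq gene lengths. A gene was called at an adjusted p (Benjamini-Hochberg) below 0.05 if it also changed by more than 1.5 times. Alternatives were limma 3.58.1 (voom), DESeq2 1.42.0, other scalings, filters and fold thresholds, a replicate block, and leaving out each library. The procedure was tested on simulated counts. Same-numbered Mga2ΔTM and wild-type libraries deviated together from their strain means (correlations across genes of 0.11, 0.27 and 0.19), so the numbers were taken to pair them, on this check of the data alone. The check is weak, since pairs of unlike number had correlations from -0.26 to 0.09. All main values and p-values come from the fit without pairing, and pairing enters only in the replicate block. Symbols matched RefSeq for 6045 of 7122 genes, and promoter windows were read from that genome. Members and gene lists were chosen with earlier results of these data known. Named genes were the engineered genes, lipid genes named by the study, called members and up to 6 uncalled members of each list, and the largest changes with at least 10 counts on average and no overlap between the strains, 20 in each direction against wild-type and 10 in each direct comparison.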

Additional observations from a re-analysis of the deposited data

How the results depend on the processing

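No count of called genes changed by over 1.5 times against wild-type with limma, DESeq2, RLE size factors, the other count filters, the replicate block or only the libraries of the 2 strains. No named gene that was called against wild-type reversed its direction. Named genes that were not called were not checked for this. Calls of single named genes were less stable. With only the libraries of the 2 strains 24 named genes lost their call, with library totals 13, with limma 7 and with DESeq2 3. Leaving out single libraries ended from 6 calls (wild-type replicate 2) to 31 (wild-type replicate 3). Scaling by library totals moved the median of all genes by 0.09 and left 57 genes lower than wild-type. Without a fold minimum, 786 genes were higher and 693 lower than wild-type, 343 and 276 against the Mga2 strain, 437 and 374 against the Ole1 strain, and 1013 and 1079 against the mga2Δ strain. Testing against the 1.5-fold minimum itself left 170 and 10, 32 and 6, 76 and 40, and 157 and 147. Leaving out single libraries gave 340 to 457 higher and 64 to 113 lower against wild-type, 124 to 142 and 37 to 71 against the Mga2 strain, 152 to 177 and 126 to 142 against the Ole1 strain, and 298 to 488 and 358 to 564 against the mga2Δ strain. The cause of these shifts, beyond the threshold or the smaller number of libraries, was not tested. With the replicate block 407 genes were higher and 85 lower than wild-type. Among the named genes the block ended the calls of CAT8 (adjusted p = 0.0586) and ZRT3 (adjusted p = 0.0651), and it changed no other call. Same-numbered libraries did not all deviate together in the other comparisons. The block fitted the same replicate effects over all 21 libraries, so it imposed the pairing on those strains as well. The main fit assumed no pairing in any comparison. ARE1, PAH1 and FIT1 were called only with library totals. Genes with few reads in wild-type, such as DAN1 and DAL80, and near-identical copies, such as Ty elements, limit what single values can show.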
